A study of Mus musculus with 20 samples.

Results

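The calpains and calpastatin were followed here through 5 genes: Capn1 and Capn2, which encode the catalytic subunits of the ubiquitous calpains, Capn3, which encodes the muscle calpain, Capns1, which encodes the small regulatory subunit, and Cast, which encodes the inhibitor calpastatin. They were taken as every probe set, the array's unit for one transcript, whose gene symbol in the platform annotation was one of those 5. This gave 5 genes of the 8220 that the array covers with a probe set of 1 symbol, and 7 of the 12588 non-control probe sets on the array, 3 of them for Capn3 and 1 for each other gene. All 7 passed the filter on dim probe sets described with the processing, as did 7204 probe sets in all.

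Total RNA of extraocular muscle, which moves the eye, and of leg muscle had been hybridised to 20 one-colour Affymetrix arrays. The 4 groups of 5 arrays were extraocular muscle of control mice, leg muscle of control mice, leg muscle of mdx mice and extraocular muscle of mdx mice, all at 8 weeks of age and with no treatment named. The mdx mouse carries a nonsense mutation in Dmd in every cell, so that its muscle lacks full-length dystrophin, and it is a model of Duchenne muscular dystrophy. The series title calls the controls wild type, and their strain was not given in the sources used here.
The label of the control leg arrays names gastrocnemius and soleus, while that of the mdx leg arrays says leg muscle only, so a difference in the muscles dissected cannot be told apart from genotype. The text describing the arrays also differs between control and mdx arrays, and any batch that goes with it cannot be told apart from genotype either. The labels number replicates without saying that they are separate animals, so the p-values reflect only how far these samples vary, and that variation may be technical.

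Calpains are cysteine proteases of the cytosol that calcium activates and that cut their substrates at a few places rather than degrading them. The conventional calpains pair a large catalytic subunit, Capn1 or Capn2, with the small subunit Capns1, and calpastatin binds and blocks these pairs. Capn3 is found mainly in skeletal muscle, where it binds the giant sarcomeric protein titin. Loss of CAPN3 in humans causes a recessive limb-girdle muscular dystrophy, and calcium entry through the damaged membrane of dystrophin-deficient fibres has made calpains a long-studied protease system in Duchenne muscle.

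Promoter sequence is shown for Capn3 and Capn1, the 2 genes called different between the muscles of control mice. Each run holds the 250 bases before an annotated start, 5′ to 3′ on the gene's strand, from RefSeq on GRCm38.p6, and capitals mark matches to the E-box CANNTG, bound by myogenic factors such as MyoD, or to the motif of the MEF2 muscle factors. The intervals are Capn3 start 1, chr2:120463343-120463592, plus strand, Capn3 start 2, chr2:120476659-120476908, plus strand, Capn1 start 1, chr19:6015826-6016075, minus strand, and Capn1 start 2, chr19:6015248-6015497, minus strand.
Capn3 start 1: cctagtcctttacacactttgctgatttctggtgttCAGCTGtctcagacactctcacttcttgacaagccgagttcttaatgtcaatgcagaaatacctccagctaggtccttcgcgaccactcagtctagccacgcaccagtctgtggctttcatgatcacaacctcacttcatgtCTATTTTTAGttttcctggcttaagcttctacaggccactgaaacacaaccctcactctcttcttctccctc
Capn3 start 2: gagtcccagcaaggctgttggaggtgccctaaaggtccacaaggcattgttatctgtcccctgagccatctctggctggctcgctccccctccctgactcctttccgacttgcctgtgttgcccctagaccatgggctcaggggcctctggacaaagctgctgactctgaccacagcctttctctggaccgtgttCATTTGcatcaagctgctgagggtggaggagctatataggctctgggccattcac
Capn1 start 1: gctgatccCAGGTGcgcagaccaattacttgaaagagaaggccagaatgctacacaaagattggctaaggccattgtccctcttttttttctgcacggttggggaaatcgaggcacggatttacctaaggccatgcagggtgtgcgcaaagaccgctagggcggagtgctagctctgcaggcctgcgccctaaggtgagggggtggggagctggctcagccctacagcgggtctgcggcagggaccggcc
Capn1 start 2: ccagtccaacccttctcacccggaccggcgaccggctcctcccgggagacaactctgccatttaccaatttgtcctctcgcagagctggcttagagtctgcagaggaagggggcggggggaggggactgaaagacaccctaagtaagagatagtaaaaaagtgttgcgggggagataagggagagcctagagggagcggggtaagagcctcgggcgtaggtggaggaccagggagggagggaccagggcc
Capn3 start 1 held the E-box CAGCTG 214 to 209 bases before the start and the MEF2 match CTATTTTTAG 72 to 63 bases before it. Capn3 start 2 held the E-box CATTTG 55 to 50 bases before its start, and Capn1 start 1 the E-box CAGGTG 242 to 237 bases before its start. Capn1 start 2 held no match to either motif. All 5 genes were found in the promoter table, with 10 starts in all, and the MEF2 motif matched in 1 of the 10. Searched on both strands, the E-box matched in 66.2% and the MEF2 motif in 2.92% of the 32851 promoters of the same length in that table, and no matches of the 2 motifs overlapped. GGGCGG, the GC box, matched in 32.7% of them, CCAAT in 33.8% and TATAAA in 12.4%. Capn1 start 1 held 1 GC box and 2 matches to CCAAT, and Capn1 start 2 held 1 of each, whereas neither Capn3 start held any match to these 3. A match describes these letters and is not evidence of binding, and the arrays do not show which start was used.

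Before the results, 2 arrays of the leg control group stood apart. The summed signal of 7 slow fibre genes was 78974 on leg control 1 and 2035 on leg control 4, against 31633 to 33566 on the other 3, and Hoxd8, a limb-patterning gene, read 94.9 on leg control 4 against 504 to 1416 on all other leg arrays. Dmd read 77.5 ± 32.3 (SD, n = 5) in leg mdx against 149 ± 40.2 in leg control arrays, and 119 ± 31.7 against 268 ± 47.4 in extraocular muscle. The summed signal of 15 macrophage genes was 42735 to 55177 in leg mdx arrays and 4640 to 6498 in leg control arrays, and all 13 tested were called higher in leg mdx muscle with a median log2 difference of 3.27. Of 12 tested fibroblast and matrix genes 11 were called higher there, with summed signals of 63797 to 71721 against 27340 to 37665. Of 11 tested satellite cell and regenerating myoblast genes 4 were called higher and 0 lower, with a median log2 difference of 0.23. Those 4 were Peg3 (4.15-fold), Chrna1 (4.32-fold), Ncam1 (1.67-fold) and Myog (2.91-fold). Over all tested probe sets 10.7% were called higher and 7.15% lower in leg mdx muscle. None of 10 tested mature muscle fibre genes was called, and their median log2 difference was -0.44, or -0.20 without leg control 1 and 4. Their summed signal ran from 46887 to 89679 in leg mdx and from 60813 to 175477 in leg control arrays, the highest on leg control 1. Of the 7 slow fibre genes 0 were called in leg mdx muscle with all arrays. With leg control 1 and 4 left out, 0 were called higher and 2 lower. Tnnc2, a fast fibre troponin, lay under the floor on every array. The extraocular marker Myh13 was not matched on this array. The part of these cell type differences in the calpain results was not tested, and in whole muscle, fewer cells of a type and less RNA per cell cannot be told apart.

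Capn3 was lower in the leg muscle of mdx mice than of control mice. All 3 of its probe sets were called lower, at 1.65-fold for the brightest, while Capn1, Capn2, Capns1 and Cast were not called. The question in leg muscle was what dystrophin deficiency does to transcript levels in a muscle that it damages. A probe set was called when its limma p-value, adjusted by Benjamini-Hochberg over all 7204 tested probe sets, was under 0.05.

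On the brightest of the 3 Capn3 probe sets the scaled signal was 3803, 4117, 4473, 6042 and 3534 on leg control arrays 1 to 5, and 3314, 2922, 2659, 3271 and 1432 on leg mdx arrays 1 to 5. Every mdx array lay below every control array, with leg control 4 the highest and leg mdx 5 the lowest. The log2 difference was -0.73 (SE 0.20, limma adjusted p = 0.0142), from 4394 ± 986 (SD, n = 5) in control to 2720 ± 768 in mdx arrays. This call was kept in each of the 10 fits that left out 1 leg array, but not when leg control 1 and 4 were both left out (log2 difference -0.63, limma adjusted p = 0.0738).

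The middle Capn3 probe set by signal read 650, 737, 663, 645 and 563 on the leg control arrays, and 479, 497, 440, 570 and 196 on the leg mdx arrays. Only leg mdx 4, at 570, reached above the lowest control array. In limma the log2 difference was -0.66 (SE 0.21, limma adjusted p = 0.0351). The call ended in 6 of the 10 fits that left out 1 leg array, those without leg control 1, 2, 3 or 4 or without leg mdx 3 or 5, with adjusted p from 0.0539 to 0.0862 in limma. Without leg mdx 5 the log2 difference was -0.39, and without leg control 1 and 4 together the limma adjusted p was 0.0999.

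The dimmest Capn3 probe set was designed to the same transcript record as the middle one, so these are not independent readings. It read 332, 580, 445, 542 and 380 on the leg control arrays, and 215, 338, 263, 286 and 325 on the leg mdx arrays. Leg control 1 fell within the mdx range, so the groups overlapped. Its log2 difference was -0.66 (SE 0.20, limma adjusted p = 0.0224), which was lost without leg control 2 or 4 or without leg mdx 1 or 3 (adjusted p from 0.0525 to 0.0704 in limma). It was kept without leg control 1 and 4 together, at a limma adjusted p of 0.0419. The mean of the 3 probe sets per array gave a log2 difference of -0.68 for Capn3, with a limma adjusted p of 0.0016. The transcript record shared by the middle and dimmest probe sets carries most of the weight in this mean. The mean was not refitted with arrays left out.

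**Figure D1:**
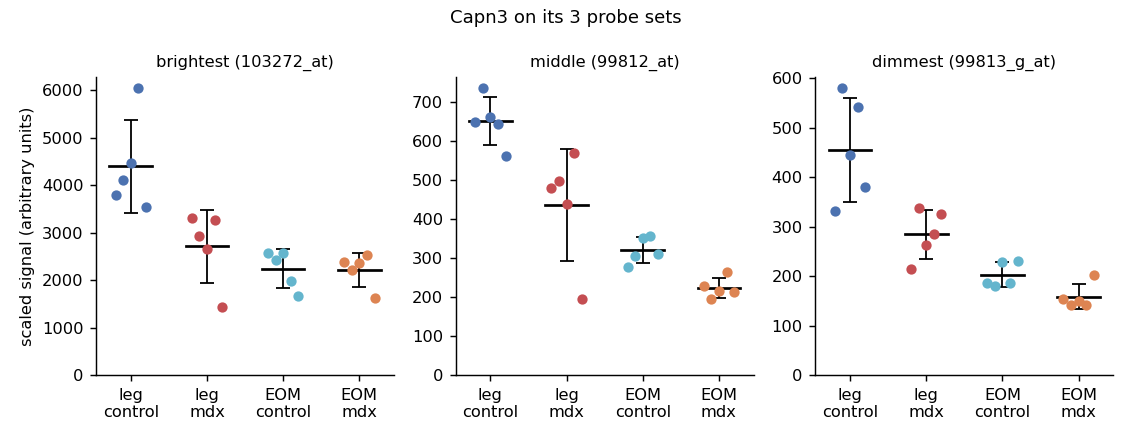
Scaled signal of the 3 Capn3 probe sets (vertical axis, arbitrary units, from 0) on each of the 20 arrays, by group. Points are arrays, lines are means and bars are SD (n = 5). On the brightest the 5 leg mdx arrays, 1432 to 3314, all sit below the 5 leg control arrays, 3534 to 6042, while the extraocular control and mdx arrays overlap.

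These 3 were the members called in leg muscle, so 3 of 7 member probe sets were called lower, 0 higher. Over all tested probe sets 7.15% were called lower and 10.7% higher, 17.9% in all. All 3 lower calls came from 1 gene. With Capn3 counted once per probe set, the median log2 difference of the 7 was -0.30, against -0.06 over all tested probe sets. Capn1 stood at -0.30, but Capn2, Capns1 and Cast at 0.39, 0.32 and 0.08. The groups did not overlap on 1 of the 7, against 13.6% of all tested probe sets.

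Capn1, the catalytic subunit of the calpain that responds to the lower calcium levels, read 1719, 2281, 2256, 2418 and 2063 on the leg control arrays, and 1986, 1712, 1807, 1710 and 1499 on the leg mdx arrays. The groups overlapped because leg control 1 lay below leg mdx 1 and 3. The log2 difference of -0.30 (SE 0.14) did not pass, with a limma adjusted p of 0.155.

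For Capn2, the catalytic subunit of the calpain that needs more calcium, the signal was 570, 517, 543, 522 and 449 in leg control arrays, and 605, 689, 795, 927 and 476 in leg mdx arrays. Leg mdx 1 to 4 lay above every control array, and leg mdx 5 lay among the controls. The log2 difference was 0.39 (SE 0.17), with a limma adjusted p of 0.133. Without leg mdx 5 it was 0.52, with a limma adjusted p of 0.0418, so this array decided whether Capn2 was called.

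The small subunit Capns1 read 3679, 2726, 2562, 3491 and 2295 in leg control arrays, and 4357, 3257, 3842, 3745 and 3008 in leg mdx arrays. Leg control 1 and 4, the 2 arrays that stood apart, were its 2 highest controls and lay within the mdx range. The log2 difference was 0.32 (SE 0.15, limma adjusted p = 0.158) with all arrays and 0.52 without those 2 (limma adjusted p = 0.025). Without them 1 of the 7 member probe sets was called higher, Capns1, and 1 lower, a Capn3 probe set.

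Cast, the calpastatin gene, read 459, 460, 444, 528 and 450 in leg control arrays, and 432, 479, 642, 501 and 440 in leg mdx arrays. The groups overlapped throughout. The log2 difference was 0.08 (limma adjusted p = 0.785), and it ran from -0.02 to 0.13 in the fits that left out 1 array. Capn1, Capn2 and Capns1 each had an unadjusted limma p under 0.05 in this contrast, which made 6 of the 7 with the Capn3 probe sets. Over all tested probe sets 2124 of 7204 had one.

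**Figure D2:**
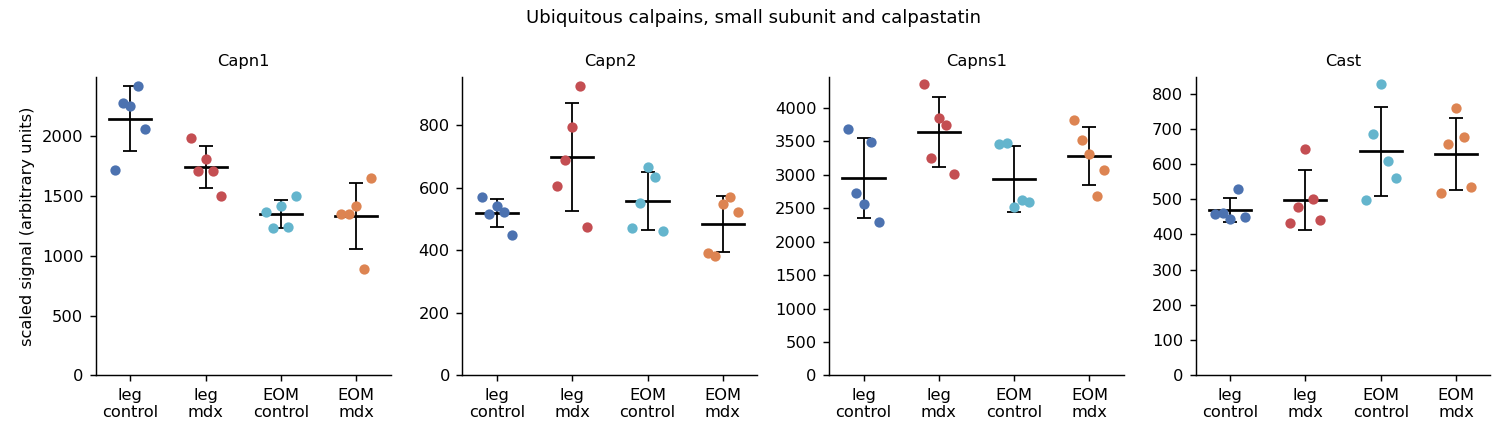
Scaled signal of Capn1, Capn2, Capns1 and Cast (vertical axes, arbitrary units, from 0) on each of the 20 arrays, by group. Points are arrays, lines are means and bars are SD (n = 5). Leg mdx 5 stands below the other leg mdx arrays on Capn2 (476 against 605 to 927), and the 5 leg control arrays lie above the 5 extraocular control arrays on Capn1.

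In extraocular muscle, which is known to be spared in dystrophin deficiency, no calpain or calpastatin probe set was called between mdx and control mice. The count was 0 of 7, against 0.0833% of all tested probe sets. In limma 1 of the 7 had an unadjusted p under 0.05, against 369 of all 7204. The median log2 difference of the 7 was -0.05, against -0.02 over all tested probe sets.

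The middle Capn3 probe set was that one. It read 277, 307, 353, 356 and 311 in extraocular control arrays, and 228, 197, 216, 265 and 213 in extraocular mdx arrays. Every mdx array lay below every control array, which held for 1 of the 7 member probe sets and 1.15% of all tested probe sets. The log2 difference was -0.52 (SE 0.21), with a limma adjusted p of 0.955. The brightest Capn3 probe set showed no such separation: it read 2581, 2428, 2570, 1987 and 1674 in control and 2375, 2213, 2371, 2537 and 1619 in mdx arrays (log2 difference -0.01, limma adjusted p = 0.999). The dimmest Capn3 probe set read 187, 180, 230, 187 and 232 in control and 155, 143, 151, 143 and 203 in mdx arrays (log2 difference -0.36, limma adjusted p = 0.999). The 3 readings of 1 gene thus ran from -0.52 to -0.01 in extraocular muscle, where in leg muscle they lay between -0.73 and -0.66. Whether the probe sets differ from each other was not tested.

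Among the ubiquitous calpains in extraocular muscle, Capn1 read 1366, 1236, 1420, 1239 and 1504 in control and 1349, 1351, 1417, 889 and 1648 in mdx arrays. Capn2 read 472, 553, 667, 634 and 463 in control and 392, 382, 547, 572 and 522 in mdx arrays. Neither gene's groups separated, and the log2 differences were -0.05 and -0.21. Capns1 read 3458, 3481, 2525, 2626 and 2586 in control and 3817, 3522, 3309, 2683 and 3068 in mdx arrays (log2 difference 0.17). Cast read 499, 684, 826, 609 and 561 in control and 517, 656, 759, 676 and 534 in mdx arrays (log2 difference -0.01). The limma adjusted p was 0.999 for each of these 4 genes.

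Whether the mdx effect differed between the muscles was tested as an interaction, the leg difference minus the extraocular difference. No member probe set passed, 0 of 7 against 6.22% of all tested probe sets. In limma 2 of the 7 had an unadjusted p under 0.05, against 1320 of all 7204. The brightest Capn3 probe set gave -0.71 (SE 0.29, limma adjusted p = 0.169), but the middle one gave -0.14 and the dimmest -0.31. Capn2 gave 0.61 (SE 0.25, limma adjusted p = 0.179), the largest positive value among the 7. With the replicate number as a block, the brightest Capn3 probe set alone among the 7 passed (limma adjusted p = 0.0404). No label says that the numbers pair the arrays, and the data gave only a hint of it. The Capn3 calls in leg muscle are therefore not shown to differ from the extraocular result.

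**Figure D3:**
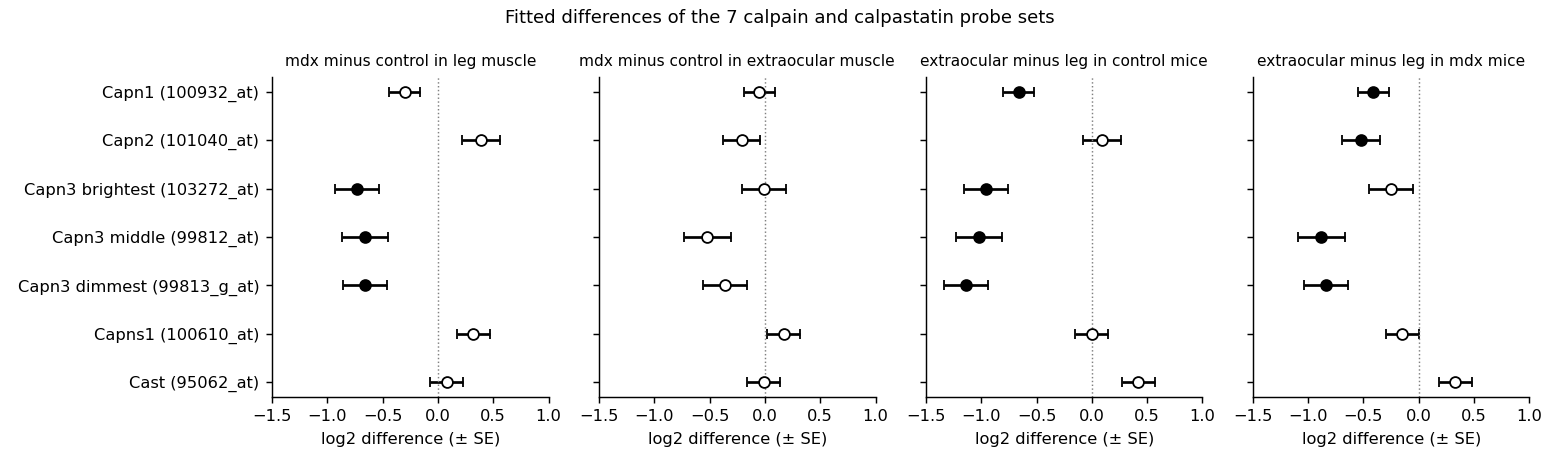
Fitted log2 differences (horizontal axes, with SE) of the 7 calpain and calpastatin probe sets in leg and extraocular mdx muscle and between the muscles of control and of mdx mice, 1 panel each. Filled points were called at a limma adjusted p under 0.05. Filled points lie on the negative side in leg mdx muscle for Capn3 and between the muscles for Capn1 and Capn3, and in mdx mice Capn2 joins them while the brightest Capn3 probe set is open.

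Between the muscles of control mice, Capn3 and Capn1 were lower in extraocular than in leg muscle. Capn3 was 1.95-fold, 2.03-fold and 2.21-fold lower on its 3 probe sets and Capn1 1.58-fold lower. The 4 probe sets were the ones called, 4 of 7 lower and 0 higher, against 7.41% of all tested probe sets called lower and 17.7% called in either direction. On the same 4 the extraocular and leg control arrays did not overlap, against 13.5% of all tested probe sets. With Capn3 counted once per probe set, the median of the 7 was -0.66, against 0.02 over all tested probe sets. Capn2, Capns1 and Cast were not lower, at 0.09, 0.00 and 0.42.

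For Capn3 the log2 differences were -0.96 (SE 0.20, limma adjusted p = 0.00177) on the brightest probe set, -1.02 (limma adjusted p = 0.00167) on the middle one and -1.14 (limma adjusted p = 0.000259) on the dimmest. The extraocular means were 2248 ± 401, 321 ± 33.7 and 203 ± 25.3 (SD, n = 5), against 4394 ± 986, 651 ± 61.9 and 456 ± 105 in leg muscle. For Capn1 the log2 difference was -0.66 (SE 0.14, limma adjusted p = 0.00177), with 1353 ± 116 against 2147 ± 271. These 4 calls were kept in all 10 fits that left out 1 control array and under each other alternative in which the probe set was fitted.

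Markers of cell types also differed between the control muscles, where 17.7% of all tested probe sets were called in either direction. Of 10 tested endothelium and smooth muscle genes 4 were called higher in extraocular muscle and 0 lower, with summed signals of 9821 to 12967 against 4382 to 8241 in leg muscle. They included the smooth muscle myosin Myh11, 5.6-fold higher (limma adjusted p = 2.17e-05). Of 12 fibroblast and matrix genes 6 were called higher and 0 lower, with summed signals of 32834 to 55062 against 27340 to 37665. Of 13 macrophage genes 3 were called higher and 0 lower, and of 7 slow fibre genes 1 higher and 0 lower. With leg control 1 and 4 left out, 3 slow fibre genes were called higher and 1 lower. Of the fibroblast and matrix genes 4 were then called higher, and of the macrophage genes 2. With all arrays, 1 of 10 mature muscle fibre genes was called higher and 1 lower, Pvalb at 2.76-fold (limma adjusted p = 2.73e-08). Of 11 satellite cell and regenerating myoblast genes 2 were called higher and 0 lower. They were Chrna1 at 6.03-fold (limma adjusted p = 3.83e-10) and Peg3 at 4.86-fold (limma adjusted p = 2.32e-10). In mdx mice 18.1% of all tested probe sets were called in either direction. There 7 of the 10 endothelium and smooth muscle genes were called higher in extraocular muscle. Of the 10 mature muscle fibre genes 4 were called higher and 1 lower, and of the 11 satellite cell and regenerating myoblast genes 4 higher and 2 lower. Of the 12 fibroblast and matrix genes 0 were called higher and 5 lower, and all 13 macrophage genes were called lower. Of the 7 slow fibre genes 0 were called. With leg control 1 and 4 left out of the shared fit, 4 slow fibre genes were called higher and 2 lower. Of the fibroblast and matrix genes 9 were then called lower. The part of these cell types in the Capn3 and Capn1 differences was not tested.

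Capn2 did not differ detectably between the control muscles (log2 difference 0.09, limma adjusted p = 0.793), nor did Capns1 (0.00, limma adjusted p = 0.999). Cast was the member with the largest positive value, at 636 ± 126 in extraocular and 468 ± 33.8 in leg muscle. Its log2 difference was 0.42 (SE 0.15, limma adjusted p = 0.064), which missed the threshold. It passed without extraocular control 1 (0.50, limma adjusted p = 0.0346), with array weights (limma adjusted p = 0.021) and with a replicate block (limma adjusted p = 0.0293). In 9 of the 10 fits that left out 1 array it did not pass (limma adjusted p up to 0.191). Of 13 other alternatives only the 2 named here called it (limma adjusted p up to 0.102).

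In mdx mice 4 of the 7 were again called lower in extraocular than in leg muscle and 0 higher, against 8.83% of all tested probe sets called lower and 18.1% called in either direction. They were the middle Capn3 probe set at 1.84-fold (limma adjusted p = 0.00514), the dimmest Capn3 probe set at 1.79-fold (limma adjusted p = 0.00427), Capn1 at 1.33-fold (limma adjusted p = 0.0432) and Capn2 at 1.43-fold (limma adjusted p = 0.0436). The arrays of the groups did not overlap on 1 of the 7, the dimmest Capn3 probe set, against 14.4% of all tested probe sets. With Capn3 counted once per probe set, the median of the 7 was -0.41, against 0.00 over all tested probe sets. Capns1 and Cast, neither of them called, stood at -0.15 and 0.33.

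The brightest Capn3 probe set was not called between the mdx muscles (log2 difference -0.25, limma adjusted p = 0.459), with 2223 ± 356 in extraocular and 2720 ± 768 in leg muscle. The mean of the 3 Capn3 probe sets was called lower (log2 difference -0.66, limma adjusted p = 0.00229). Most of its weight lies on the transcript record shared by the middle and dimmest probe sets, and it was not refitted with arrays left out. The Capn1 and Capn2 calls were near the threshold. Capn1 was lost in 8 of the 10 fits that left out 1 mdx array, those without arrays 1, 2, 3 or 4 of either muscle, and stood at -0.27 without extraocular mdx 4, its lowest array at 889. Capn2 was lost in 5 of the 10, without leg mdx 2, 3 or 4 or extraocular mdx 1 or 2, and the limma adjusted p reached 0.134 for both genes. The calls of the other 2 Capn3 probe sets were kept in all 10. Comparisons in control and in mdx mice and those within each muscle share arrays, so these counts are not separate pieces of evidence.

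By mean signal, each Capn3 probe set and Capn1 stood in the same order of groups: leg control, leg mdx, extraocular control, extraocular mdx. Neighbours in that order overlapped on every one of these probe sets, with 2 exceptions. Leg control and leg mdx parted on the brightest Capn3 probe set, and extraocular control and extraocular mdx on the middle one. Cast was highest in extraocular control and lowest in leg control muscle, with every neighbouring pair overlapping. Capn2 was highest in leg mdx muscle (698 ± 173) and lowest in extraocular mdx muscle (483 ± 89.5), and Capns1 was highest in leg mdx muscle (3642 ± 527) and lowest in extraocular control muscle (2935 ± 489). Every neighbouring pair of Capn2 and Capns1 overlapped too.

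The likeness of the Capn3 probe sets over the 20 arrays was read with and without the group differences. Pearson's r of log2 signals was 0.84 for the brightest with the middle one, and 0.70 after each group's mean was taken off. For the brightest with the dimmest it was 0.64, and -0.20 within groups, and for the middle one with the dimmest 0.80 and -0.09. Among the genes, each by its brightest probe set, Capn1 and Capn3 had r = 0.65 (0.09 within groups) and Capn1 and Cast r = -0.60 (-0.10 within groups). Capn2 and Cast had r = 0.13 over all arrays but 0.57 within groups. These are descriptions over 20 arrays that share groups and scaling.

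The genes whose log2 signal was most like each member over the 20 arrays were found among the 6262 tested probe sets with 1 symbol. Selection from so many makes a high r certain for some of them, and r also carries the group differences. For Capn3 they were Fem1a (r = 0.90), Map2k6, a kinase that activates p38 (r = 0.90), and Pfn2, an actin-binding profilin (r = 0.88). Pfn2 was also called lower in leg mdx muscle (log2 difference -0.74, limma adjusted p = 0.000469), as was Fem1a (-0.64, limma adjusted p = 0.0148), but not Map2k6 (-1.07, limma adjusted p = 0.0758). For Capn1 they were Dffa, an inhibitor of the apoptotic nuclease (r = 0.92), Syngr2 (r = 0.90) and Chmp7 (r = 0.90).
Cast was most like Pitx1, a hindlimb transcription factor (r = 0.84), Nrp1, a receptor for semaphorins and VEGF (r = 0.82), and Tjp1, a tight junction protein (r = 0.82). The mean signal of Pitx1 was 827 in extraocular and 472 in leg control muscle. The likeness was lower for Capn2, with Npm1, a nucleolar protein (r = 0.70), Plekho1 (r = 0.68) and Morf4l2 (r = 0.65). For Capns1 they were the histocompatibility gene H2-K2 (r = 0.78), the RNA-binding protein Ewsr1 (r = 0.75) and Rangap1, which acts in nuclear transport (r = 0.74).

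Of 12 other listed members of the calpain family, 5 had probe sets on the array, 9 in all, and 6 of these probe sets, for Capn5, Capn6, Capn9 and Capn10, were tested. In leg mdx muscle Capn6 was called higher and Capn5 lower, and the median over the 4 genes was -0.01. In extraocular muscle 0 of the 4 were called. The 3 that were too dim to test were 1 each of Capn6, Capn7 and Capn10.

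Capn6, a calpain that lacks the catalytic cysteine and binds microtubules, was 3.74-fold higher in leg mdx than leg control muscle on the dimmer of its 2 tested probe sets. There it read 69.7, 247, 143, 142 and 185 in leg control and 612, 496, 378, 584 and 712 in leg mdx arrays. Every mdx array lay above every control array, and the log2 difference was 1.90 (SE 0.28, limma adjusted p = 2.83e-05). In extraocular muscle the same probe set read 251, 254, 346, 222 and 255 in control and 309, 235, 164, 187 and 188 in mdx arrays (log2 difference -0.32).

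The interaction of this dimmer Capn6 probe set was 2.22 (SE 0.39, limma adjusted p = 0.000962), among 4.93% of all tested probe sets called higher there. On the brighter Capn6 probe set the leg signal was 205, 604, 518, 554 and 486 in control and 925, 780, 837, 748 and 987 in mdx arrays (log2 difference 0.94, limma adjusted p = 0.00423). Its groups did not overlap either, but its interaction of 0.80 did not pass (limma adjusted p = 0.159). The mean of the tested Capn6 probe sets, which includes the dimmer one, gave an interaction of 1.51 that passed (limma adjusted p = 0.00496). Both leg calls were kept in all 10 fits that left out 1 leg array. Leg control 1, which stood apart, was the lowest array on both probe sets.

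Between the muscles, the dimmer Capn6 probe set was higher in extraocular muscle of control mice (log2 difference 0.85, limma adjusted p = 0.035) and lower in extraocular muscle of mdx mice (-1.37, limma adjusted p = 0.00108). The first of these was lost in 7 of the 10 fits that left out 1 array (limma adjusted p up to 0.0998), and without leg control 1 and 4 (0.234). Capn5, which lacks the calmodulin-like domain of the conventional calpains, read 435, 414, 439, 334 and 382 in leg control and 201, 166, 294, 267 and 369 in leg mdx arrays. Only leg mdx 5 lay within the control range. Its log2 difference was -0.68 (SE 0.22, limma adjusted p = 0.0338), a call lost without leg control 1, 2 or 3 or leg mdx 1 or 2 (limma adjusted p up to 0.104), and without leg control 1 and 4 together (0.0715). Capn9 gave -0.26 (limma adjusted p = 0.556) in leg muscle, and the 2 tested Capn10 probe sets gave 0.25 (limma adjusted p = 0.601) and 0.05 (limma adjusted p = 0.895).

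**Figure D4:**
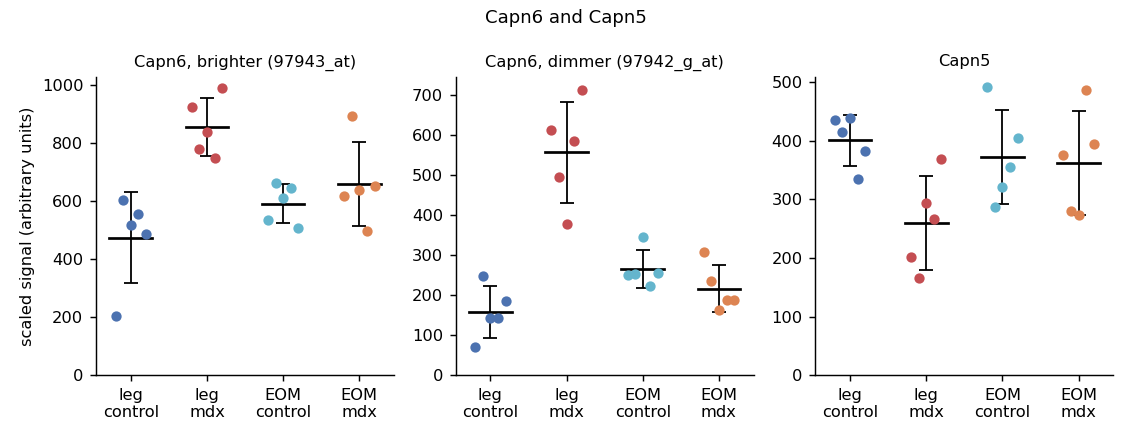
Scaled signal of the tested Capn6 and Capn5 probe sets (vertical axes, arbitrary units, from 0) on each of the 20 arrays, by group. Points are arrays, lines are means and bars are SD (n = 5). On the dimmer Capn6 probe set the 5 leg mdx arrays, 378 to 712, lie above all 15 other arrays, and on Capn5 the leg mdx mean is 260 against 401 in leg control arrays.

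Calpain substrates and binding partners were read from a list of 21 genes, 14 of them tested. In leg mdx muscle 5 were called higher and 1 lower, against 10.7% and 7.15% of all tested probe sets, with a median log2 difference of 0.23 against -0.06. Anxa1, an annexin that binds membranes in the presence of calcium, was 5.82-fold higher (limma adjusted p = 7.79e-09), and Anxa2, an annexin of membrane repair, 2.84-fold higher (limma adjusted p = 1.05e-05). Ezr, a linker of actin to the membrane, was 2.78-fold higher (limma adjusted p = 4.12e-06) and Cttn, an actin-branching protein, 1.8-fold higher (limma adjusted p = 0.000133). Vcl, of cell adhesions, was the other one called higher, and Vim, an intermediate filament protein, was called lower. Without leg control 1 and 4, 4 were called higher and 0 lower. The annexins and Ezr are also made by macrophages and fibroblasts, whose markers were higher in the same arrays. Vim is made by those cells too and was the 1 called lower. The part of those cells was not tested. In extraocular muscle 0 of 14 were called (median 0.18), and for the interaction 4 were called higher, Anxa1, Anxa2, Ezr and Cttn, and 0 lower, against 4.93% of all tested probe sets called higher.

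Inhibitors of other protease classes, with related serpins, made up a list of 14 genes, 9 of them tested. In leg mdx muscle 8 were called higher and 0 lower, against 10.7% and 7.15% of all tested probe sets, with a median log2 difference of 1.21 against -0.06. In the same comparison 13 of 13 macrophage genes (median 3.27) and 11 of 12 fibroblast and matrix genes (median 1.41) were called higher, and the part of those cells was not tested. Cstb, which inhibits lysosomal cathepsins, was 2.85-fold higher (limma adjusted p = 3.06e-08). Timp1, which inhibits matrix metalloproteinases, was 5.63-fold higher (limma adjusted p = 5.96e-08). Serpinb6a, a serine protease inhibitor of the cytosol, was 2.79-fold higher (limma adjusted p = 1.99e-06) and Serpinh1 2.31-fold higher (limma adjusted p = 0.000665). Serpinh1 is a collagen chaperone that belongs to the serpin family and does not inhibit proteases, and Serpinf1, also called higher, is another serpin that does not. Calpastatin, at a log2 difference of 0.08, was not called.
Cst3, a secreted cathepsin inhibitor, was the tested one not called (-0.22, limma adjusted p = 0.334). Without leg control 1 and 4, 6 of the 9 were called higher. In extraocular muscle 0 of 9 were called (median 0.17), and 4 of 9 were called higher for the interaction, against 4.93% of all tested probe sets, Cstb, Timp1, Serpinb6a and Serpina3n. Of 12 ubiquitin ligases and proteases of apoptosis and autophagy, only Nedd4, Casp9 and Atg4b were tested, and 0 were called in either mdx comparison.

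**Figure D5:**
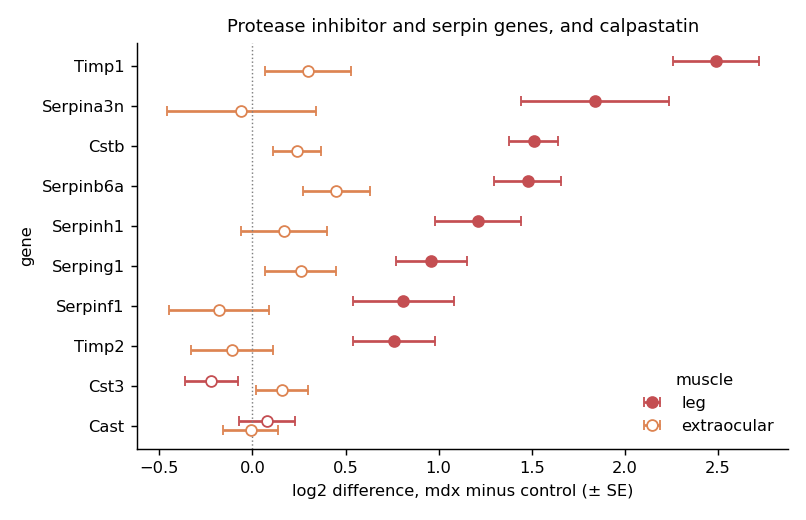
Fitted log2 difference, mdx minus control, with its SE (horizontal axis), of the tested genes of the protease inhibitor and serpin list and of Cast (vertical axis), in leg and in extraocular muscle. Filled points were called at a limma adjusted p under 0.05. In leg muscle 8 of the 9 listed genes lie to the right and are filled, Cast sits at 0.08, and no extraocular point is filled.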

How the data were processed

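The authors deposited 1 linear intensity per probe set and array, and the summary method is not stated in the labels. The deposited intensities run from 0.4 to 95476.8, and their 2% trimmed mean is 1500.1 on every array. Each array was scaled so that the 2% trimmed mean of non-control probe sets was 500. Printed signals are these scaled values, and fits used log2 after values under 50 were set to 50. The 7204 probe sets at 200 or more on at least 5 arrays were tested. Probe sets were named by the platform annotation, from those with 1 symbol (10298 of 12654, with 363 holding several and 1993 unlisted). A probe set may be a poor reading of its gene, and levels of different probe sets are not comparable.

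limma 3.58.1 (R 4.3.3, eBayes with a trend on mean intensity after lmFit) was fitted to all 20 arrays in 4 groups, with 16 residual degrees of freedom, 5 contrasts and Benjamini-Hochberg adjustment within each. Probe sets under 0.05 were called. The fit was tested on simulated data. A gene list used the brightest tested probe set per gene.

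The members and the gene lists were chosen with earlier results of these data known. Named were all member probe sets, all tested genes of the other calpains, up to 4 genes with the smallest adjusted p per list and mdx contrast, and the 3 genes most correlated with each member. Vcl, Vim, Cst3, Serpinf1, Nedd4, Casp9, Atg4b, the marker genes and the genes of the closing observations fall outside that rule and were named after their values were seen. Alternatives were the deposited scale, quantile normalization, other floors, a pseudocount, other filters, no trend, weights per array, a fit of only the compared groups, a block on replicate number, gene means, and leaving out each array or leg control 1 and 4 together.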

Additional observations from a re-analysis of the deposited data

Results flagged for a closer look

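The dimmer of the tested Capn6 probe sets had an mdx effect that differed between leg and extraocular muscle, with an interaction of 2.22 on the log2 scale (SE 0.39, limma adjusted p = 0.000962). The other tested Capn6 probe set did not pass that test. The mean of the tested Capn6 probe sets, which includes the dimmer one, did (1.51, limma adjusted p = 0.00496).

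In 52 groups of 5 arrays, over the 13 tested calpain family and calpastatin probe sets, 4 arrays stood far from the other 4 of their group, where chance flags about 1 in 20 groups. They were Cast on leg control 4, at 528 against 444 to 460, and the dimmest Capn3 probe set on extraocular mdx 5, at 203 against 143 to 155. The other two were the dimmer Capn10 probe set on extraocular mdx 5, at 869, and the dimmer Capn6 probe set on extraocular control 3, at 346 against 222 to 255.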

How the results depend on the processing

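The 4 calls between the control muscles were kept under every alternative that fitted those probe sets. In leg mdx muscle 3 member probe sets were called, 1 when only the compared groups were fitted, and 1 to 3 when 1 array was left out. Between the mdx muscles 4 were called, 2 with no filter or with only the compared groups, and 2 to 4 when 1 array was left out. With gene means, 1 gene was called in leg mdx muscle and 2 between the control muscles, because the 3 Capn3 probe sets become 1 value. The replicate block gave 1 interaction call in place of 0. It also called Cast between the control muscles (limma adjusted p = 0.0293) and lost the Capn1 call between the mdx muscles (limma adjusted p = 0.0519). Same-numbered arrays of different groups had correlated deviations of -0.084 to 0.228 over 30 pairs (median 0.029), against -0.197 to 0.151 over 120 other pairs (median -0.015). Not every same-numbered pair passed 0.1. Some of these pairs join control with mdx mice, which cannot be the same animal. Their range therefore cannot decide whether leg and extraocular arrays of the same genotype were paired. No label pairs the arrays, so the numbers were not taken to pair them. Even so, 10 of 20 arrays were closest to their own number out of 5 numbers, a hint from the data and not the design. The block moved the count of calls over all probe sets from 1287 to 1351 in leg mdx and from 448 to 458 for the interaction.

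Signs changed for the values that follow, none of them called. The dimmer Capn10 probe set in leg muscle was -0.0047 with quantile normalization, -0.0297 with array weights, -0.108 without leg control 1 and 4, and -0.028 to 0.16 with 1 array left out. Cast in extraocular muscle was 0.0109 with quantile normalization, and the brighter Capn6 probe set there -0.0872 with gene means. With 1 array left out, the extraocular mdx values ran from -0.11 to 0.10 for the brightest Capn3 probe set, -0.0927 to 0.0896 for Cast and -0.13 to 0.0903 for Capn1. In leg mdx muscle Cast ran from -0.017 to 0.13 and the brighter Capn10 probe set from -0.0306 to 0.41. The interaction ran from -0.0113 to 0.17 for Cast and -0.26 to 0.13 for the middle Capn3 probe set, and Capns1 between the control muscles from -0.08 to 0.0863. The cause of these changes was not tested. The 5 arrays a group limit the precision of all these values.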

Other observations

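Between the muscles of control mice, 5 of the 9 tested genes of the protease inhibitor and serpin list were called higher in extraocular than in leg muscle and 1 lower, where 17.7% of all tested probe sets were called in either direction and 7.41% lower. Between those of mdx mice 0 were called higher and 4 lower, against 18.1% in either direction and 8.83% lower. Serping1, the inhibitor of complement C1, was 2.11-fold higher in extraocular control muscle (limma adjusted p = 0.000266), with a mean signal of 3720 against 1809. Serpinb6a was the 1 called lower in control mice (1.57-fold, limma adjusted p = 0.0113), and in mdx mice it was 3.21-fold lower (limma adjusted p = 4.32e-07), with 2738 against 8788. Summed fibroblast and matrix signals ran from 32834 to 55062 in extraocular control and from 27340 to 37665 in leg control arrays, and the part of those cells was not tested.

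Among calpain substrates and partners, Sptan1, the spectrin chain whose cleavage marks calpain activity, was higher in extraocular muscle in both genotypes, by 1.91-fold in control mice (limma adjusted p = 0.00123) and 1.71-fold in mdx mice (limma adjusted p = 0.00548). Ankrd2, a titin-associated stretch-response protein, was 4.1-fold lower in extraocular muscle of control mice (limma adjusted p = 0.00176), with 673 against 4131 ± 4581 (SD, n = 5) in leg muscle, where the spread exceeded the mean.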
